A study of Mus musculus with 2 samples.

Results

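The regions described are 279 shared peaks of KDM4A ChIP-seq in which few reads could be placed with high confidence at a single site of the mouse genome. They were chosen from the peak lists deposited for the 2 libraries: peaks of either list that shared at least 1 bp were joined, joined peaks on chromosomes 1 to 19 and X that held peaks of both lists were kept (629 of 1886 on those chromosomes, and of 1910 in all), and a joined peak was taken when under 20% of its distinct reads had a mapping quality of 30 or more. Mapping quality is the aligner's score of how surely a read belongs where it was put, here from 0 to 42, and a distinct read is 1 read per 5′ position and strand in a library. The cells were 3T3-L1, a mouse preadipocyte line that becomes adipocyte-like under a hormone mixture, transfected and then induced to differentiate, per the labels. One group received control siRNA (siCTL) and the other siRNAs specific for GPS2 (siGPS2), both were precipitated with the same anti-KDM4A antibody (spelled anti-KMD4A in the labels), and there was 1 library per group. Input and control-antibody reads were not analysed here. No difference between the groups therefore has a replicate check, and no p-value is given.

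KDM4A is a histone demethylase that takes methyl groups off trimethylated lysines 9 and 36 of histone H3. Trimethylated lysine 9 is the mark of constitutive heterochromatin, which in mouse covers the satellite repeats around centromeres and many dispersed repeats. GPS2 belongs to the NCoR/SMRT corepressor complex, and the series' title links it to the stability of KDM4A. A short read from a repeat fits many places equally well, so an aligner puts it at one of them with a mapping quality near 0. An assembly that holds fewer copies than the cell does gathers the reads of all copies at the copies it has. For this reason such places form peaks in input libraries too, and lists of regions to be left out exist for mouse ChIP-seq. None was used here. Coordinates are those of mm8, and because no genome or annotation of that build was used, no genes, repeat families or sequences are given.

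The siCTL library held 6559860 distinct reads and the siGPS2 library 4940261, a depth ratio of 1.33. Reads of high mapping quality made up 83.6% and 83.3% of them. The 279 peaks covered 728437 bp and took in 0.326% of siCTL and 0.367% of siGPS2 distinct reads. They held 421 of the 1657 siCTL peaks and 402 of the 1349 siGPS2 peaks. All of the first 10 peaks of each list lay in them, and so did 68 of the first 100 of each list.

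The name of the group holds as far as mapping quality can show. Within the 279 peaks 74.2% of siCTL and 73.6% of siGPS2 reads had a quality of 0 or 1, against 14.02% and 14.3% in the 119 shared peaks whose reads were mostly (at least 50%) of high quality. In single peaks the share at 0 or 1 ran from 21.4% to 100%, with a median of 84.2%, and in 50 peaks every read was at 0 or 1. No read at all was of high quality in 54 peaks. These shares describe the choice and are no result. At the limit, the peak on chromosome 8 at 19783754 to 19785790 had 19.7% of reads of high quality, the peak on chromosome 8 at 20270595 to 20272604 had 19.7% and the peak on chromosome 7 at 130624608 to 130626698 had 19.6%. On the other side 9 shared peaks had exactly 20%, the first of them by position being those on chromosome 1 that start at 72628588, 135421099 and 158920573.

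Signal among the 279 peaks was very uneven. The median peak had 30 distinct reads in siCTL (lowest 5, highest 2270) and 24 in siGPS2 (lowest 2, highest 2047). The strongest 16 peaks held over 50% of the reads, and the 10 strongest by mean RPM (reads scaled to library depth) held 42.7%. The weakest peak, on chromosome 11 at 114788606 to 114790606, had 9 siCTL reads and 2 siGPS2 reads. The widest, on chromosome 14 at 43420061 to 43426803, joined 5 siCTL and 2 siGPS2 peaks over 6743 bp and held 60 and 46 reads, all of quality 0 or 1.

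The libraries piled up reads at the same places in the strongest peaks. Chromosome 5 at 2999898 to 3003537, at the very start of the assembled sequence, held 2270 distinct siCTL and 2047 siGPS2 reads. Chromosome 2 at 98466440 to 98468978 held 1475 and 1452, and its neighbour at 98462116 to 98464705 held 993 and 956. Chromosome 14 at 18207946 to 18211006 held 1418 and 1293. These 4 held the most reads, and in each the siCTL library had the larger number but by less than its depth. A second chromosome 14 peak, at 39186555 to 39188555, held 485 and 486, so that the shallower library reached the number of the deeper one. Chromosome 9 at 35054198 to 35056200 held 536 and 501, and chromosome 12 at 3108929 to 3110930 held 348 and 337. Chromosome 11 at 2999488 to 3004993 held 528 and 379, chromosome 4 at 3015909 to 3018754 held 403 and 308, and chromosome 17 at 13342145 to 13346261 held 349 and 283. In these last 3 the numbers followed the depth more closely.

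Read profiles in 20 bp bins were nearly superimposable between libraries in 7 of the 10 strongest peaks, with Pearson correlations across bins of 0.936 to 0.994, and lower in the chromosome 4 (0.807), chromosome 11 (0.750) and chromosome 17 (0.663) peaks. Over the 279 peaks the correlation had a median of 0.31 and reached 0.9 in 28. It is a description: bins of one peak share their mappability and base composition, and peaks with few reads give low values. Of the siGPS2 reads in the 279 peaks, 38.7% began at a position and strand also used by a siCTL read, and 32.8% of siCTL reads did so in reverse. In the shared peaks mostly of high quality these shares were 6.63% and 4.89%, and in those with 20 to 50% of reads of high quality 14.003% and 11.5%. Sharing becomes more frequent as reads per bp rise, and 101 of the 279 peaks shared no position. In the 225 peaks with under 5% of the positions of their densest 300 bp filled, the shares were 6.70% and 5.24%, close to those of the peaks mostly of high quality. On chromosome 12 at 3108929, 84.0% of siGPS2 positions were shared.

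**Figure D1:**
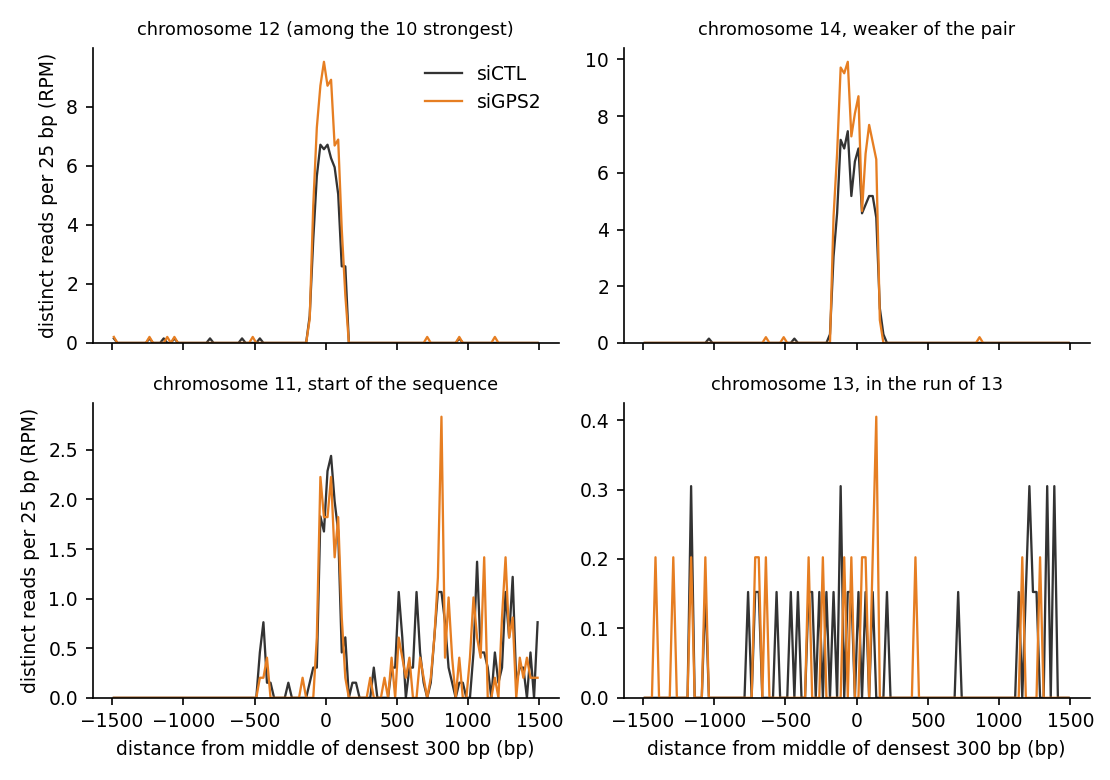
Distinct reads per 25 bp in RPM (vertical axes, each with its own scale) against the distance in bp from the middle of the densest 300 bp, for siCTL (black) and siGPS2 (orange). The chromosome 12 peak at 3108929 and the weaker chromosome 14 peak at 39186555 are narrow blocks with 98.98% and 93.5% of their reads in 300 bp, the chromosome 11 peak at the start of the sequence is a series of spikes, and the strongest peak of the chromosome 13 run has single reads scattered over it.

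Peaks of 2 shapes were set apart among the 224 peaks with at least 30 reads over both libraries. In 52 peaks at least 75% of the reads lay in the densest 300 bp, and the middle 80% of their reads spanned a median of 186 bp. In 152 peaks under 50% of the reads lay there, and the middle 80% spanned a median of 1625 bp. The narrow peaks stood almost alone on their background: the read density 2000 to 10000 bp away was a median of 0.108 times that inside the peak, against 0.472 times for the broad ones. Flanks could hold neighbouring peaks. Median widths were 2002.5 bp for the narrow and 2911 bp for the broad peaks, and a fixed 300 bp is a smaller part of a wider peak. Among the strongest, the peak on chromosome 12 at 3108929 had 98.98% of its reads in 300 bp, the chromosome 14 peak at 39186555 had 93.5% and the chromosome 9 peak at 35054198 had 85.1%, while the chromosome 5 peak at 2999898 had 15.7%. The strongest peaks thus included both shapes.

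Shape went with position along the chromosome. Of the 224 peaks, 85 had no other peak of the 279 within 1 Mb, and 45 of these were narrow in the sense above. Of 97 peaks in runs of 5 or more neighbours (gaps under 1 Mb), 2 were. Isolated peaks had a median of 81.3% of reads in the densest 300 bp, and peaks in runs 29.4%. Their median read numbers were 85 and 58. Median widths were 2008.5 bp over all 116 isolated peaks and 2531 bp over all 111 in runs of 5 or more, whatever their read number.

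Alignment span set the isolated peaks and the strongest peaks apart. The choice of peaks did not use span itself but used mapping quality, and the 2 were correlated among the peaks, as given below. In the whole libraries 1.34% of siCTL and 1.46% of siGPS2 distinct reads aligned over a length other than 48 bp, the commonest span. In the 279 peaks the share was 22.3% (95% Wilson interval 21.7 to 22.8%) in siCTL and 22.4% (21.8 to 23.0%) in siGPS2. In the shared peaks mostly of high quality it was 1.85% (1.43 to 2.41%) and 1.69% (1.23 to 2.32%). These intervals cover counting error only. The pooled share was carried by few peaks: the 10 strongest had 41.5% and 39.8%, the other 269 had 8.80% and 8.48%, and 121 of the 279 had no such alignment. The median peak had 1.69%. In the 231 shared peaks with 20 to 50% of reads of high quality the pooled shares were lower, 6.57% and 6.51%, and the median was higher, 3.57%. A span other than the read's own length arises when an alignment skips or inserts bases, or when a read is trimmed. Which applied was not tested.

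The differences in span were mostly short and in both directions. In siCTL 9.77% of reads in the 279 peaks aligned over 1 bp more than 48 bp and 5.43% over 1 bp less, and in siGPS2 the shares were 9.70% and 5.65%. The chromosome 2 peak at 98466440 had the highest share of other spans, 65.2% of its reads. The chromosome 12 peak at 3108929 had 61.3%, the chromosome 14 peak at 39186555 57.9% and the chromosome 9 peak at 35054198 57.7%. Of the 224 peaks with at least 30 reads, 59 had a share of 10% or more. These were 37 of the 85 isolated peaks, 8 of the 97 in runs of 5 or more, and the rest in shorter runs. Across the 224 peaks the share correlated with the share of reads in the densest 300 bp (Pearson 0.432, Spearman 0.369). It fell as the share of reads at quality 0 or 1 rose (Pearson −0.426, Spearman −0.581). Peaks are no replicates, and these measures come from the same reads.

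**Figure D2:**
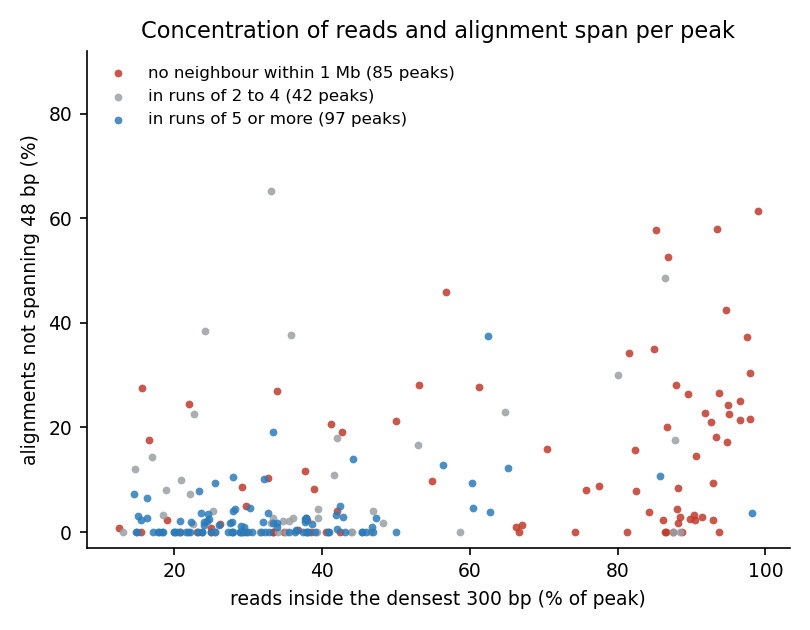
Each point is 1 of the 224 peaks with at least 30 reads: the share of its reads in the densest 300 bp (horizontal, in %) against the share of alignments not spanning 48 bp (vertical, in %), colored by its neighbours among the 279 peaks. Isolated peaks (red, 85) are 45 of the 52 at 75% or more on the horizontal axis, most peaks in runs of 5 or more (blue, 97) lie at the lower left, and the highest point (gray, a shorter run) is the chromosome 2 peak at 65.2%.

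Runs of 5 or more lay on several chromosomes, some of them inside chromosome arms and some near an end. The longest, on chromosome 13 at 65389461 to 67192795, held 13 peaks with 331 siCTL and 227 siGPS2 reads, a ratio of siGPS2 over siCTL, each scaled to its depth, of 0.911 (95% exact conditional interval 0.766 to 1.08). A run on chromosome 8 at 19681493 to 20272604 held 10 peaks with 834 and 672 reads (1.07, 0.965 to 1.19). A run on chromosome 5 at 14905206 to 15193570 held 10 peaks with 691 and 535 reads (1.03, 0.917 to 1.15). A chromosome 2 run also held 10 peaks, with fewer reads. The interval of each of these 3 ratios included 1. Among the runs of 5 or more, only that on chromosome X at 165329274 to 165557401 had an interval without 1. It held 7 peaks with 556 and 484 reads (1.16, 1.02 to 1.31) and lay near the last aligned position. Its peaks had a median of 60.3% of reads in the densest 300 bp. Another chromosome X run, at 3093130 to 3948745, lay near the first aligned position. In all, 111 of the 279 peaks lay in 14 runs of 5 or more, and 116 peaks were isolated. Another of the 279 peaks was within 100 kb of 41.6% of them, and the same measure among the 119 shared peaks mostly of high quality was 10.9%. Among the 231 shared peaks with 20 to 50% of reads of high quality it was 19.5%. Both of these sets have fewer possible neighbours.

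Chromosome 8 held the most, 36 of the 279 peaks (12.9%) against 6.78% of all reads. Chromosome 4 held 24, chromosomes 5 and 13 held 23 each, and chromosomes 2 and 14 held 21 each. Chromosomes 8 and 13 also held 19 and 12 of the 119 shared peaks mostly of high quality, and chromosome 14 held 2 of them. Within 1 Mb of the first aligned position of a chromosome lay 21 peaks on 12 chromosomes with 22.7% of the reads of the 279, and 13 peaks lay within 1 Mb of the last. Of the 231 shared peaks with 20 to 50% of reads of high quality, 16 lay near the first position and 8 near the last.

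Reads of the 2 strands were near balance in most peaks, with 40 to 60% on the plus strand in 208 of 279. Plus-strand and minus-strand 5′ ends were most alike at an offset of 53 bp in siCTL and 41 bp in siGPS2, close to the 48 bp span of an alignment, and at 53 and 40 bp in the shared peaks mostly of high quality. In the 52 narrow peaks the offsets were 47 and 41 bp. Seen from the deposited peak centres, read density within 150 bp was 13.3 times that of the flanks in siCTL and 14.6 times in siGPS2. In the shared peaks mostly of high quality these values were 7.17 and 6.72. The lists were called on these same reads, and a read near several centres was counted for each, so no interval is given. Among the 10 strongest, 7 had a further maximum of self-similarity along the strand, at lags that ranged from 73 bp on chromosome 11 to 296 bp on chromosome 17 with no lag in common. In the 3 narrowest there was none between 60 and 580 bp.

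Repeats of a position that remained in the deposited reads lay largely in a few of these peaks. How repeats were handled before deposit is not stated, so their number is that left after unknown steps and is no measure of the library's own repeats. Of the deposited reads inside the 279 peaks, 17.5% in siCTL and 17.4% in siGPS2 began at a position and strand already used in that library, against 0.137% and 0.138% of all deposited reads. With 0.326% and 0.367% of the distinct reads, the peaks held 50.5% and 55.9% of all repeats in the libraries, nearly all of them in the 10 strongest (46.6% and 52.4%). The most reads at a position were 8 in siCTL and 9 in siGPS2. In the 225 peaks under 5% filled, 0.182% and 0.125% of reads were repeats, and in the shared peaks mostly of high quality 0.0674% and 0.0457%.

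In some of the strongest peaks most positions of the densest 300 bp were in use. A 300 bp stretch offers 600 places for a distinct read, 300 on each strand. In the densest 300 bp of the chromosome 2 peak at 98466440, siCTL reads filled 81.0% of them and siGPS2 reads 80.5%. The chromosome 14 peak at 39186555 had 75.2% and 76.2% filled, the chromosome 9 peak 76.5% and 70.7% and the chromosome 5 peak at 2999898 58.8% and 53.8%. The chromosome 4 peak at 3015909, also among the 10 strongest, had 15.0% and 11.8%. Over their whole width the fullest of these peaks were less filled, the chromosome 5 peak with 31.2% and 28.1%. Over all 279 peaks the median was 1.67%, and 10 peaks stood at 20% or more as the mean of both libraries. A count of distinct reads cannot rise past the number of places, and where both libraries hold the same number the depth-scaled ratio is 1.33 by arithmetic.

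Over all 279 peaks, 21369 siCTL and 18118 siGPS2 distinct reads gave a summed ratio of 1.13 (95% exact conditional interval 1.104 to 1.15). Such intervals cover counting error only, since PCR copies cannot be told from separate molecules here, and they compare the 2 libraries and not the 2 conditions. The 119 shared peaks mostly of high quality, with 2967 and 2188 reads, gave 0.979 (0.926 to 1.04), an interval apart from that of the 279 peaks. The 231 shared peaks with 20 to 50% of reads of high quality gave 1.09 (1.05 to 1.13), which overlapped it. The median log2 ratio was 0.09 over the 279 peaks, with 163 of them above a ratio of 1. It was −0.08 over the 119 peaks, 0.03 over all 1886 joined peaks and −0.01 over 215333 bins of 10 kb that lay away from peaks and held at least 30 reads.

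The summed ratio was highest where positions were fullest. The 10 peaks with 20% or more filled had 8323 siCTL and 7738 siGPS2 reads, a ratio of 1.23 (1.197 to 1.27). Each of the 10 was above 1, and 8 had an interval above 1. Their median was 1004 reads over both libraries, against 64.5 in the 224 peaks with at least 30 reads. More reads give narrower intervals. The 44 peaks with 5 to 20% had 1.08 (1.04 to 1.12). The 225 peaks under 5%, with 7134 and 5585 reads, had 1.04 (1.004 to 1.08). That interval overlapped the 0.926 to 1.04 of the 119 shared peaks mostly of high quality. The 366 peaks found in only 1 list and with under 20% of reads of high quality had a nearly equal ratio, 1.05 (1.01 to 1.08). Across the 224 peaks with at least 30 reads the filled share and the log2 ratio correlated weakly (Pearson 0.12, Spearman 0.17), and both come from the same reads. When siCTL was thinned at random to the deposited reads of siGPS2 before repeats were removed, the ratio over all 279 peaks was 1.08 (1.058 to 1.104). This was 1 random draw, which the interval does not cover. The deposited reads had already passed the unstated handling of repeats. When the filled share in 50 bp bins was turned into an expected number of reads, the ratio was 1.13. The ratio is given without an interval in this setting, because expected reads are not counts. In all deposited reads, repeats of a position included, it was 1.12 (1.104 to 1.145). Scaled to reads of mapping quality under 30 outside joined peaks, it was 1.105 (1.083 to 1.127). Without the 10 strongest peaks it was 1.065 (1.04 to 1.09). Why the ratio differed between classes and settings was not tested.

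**Figure D3:**
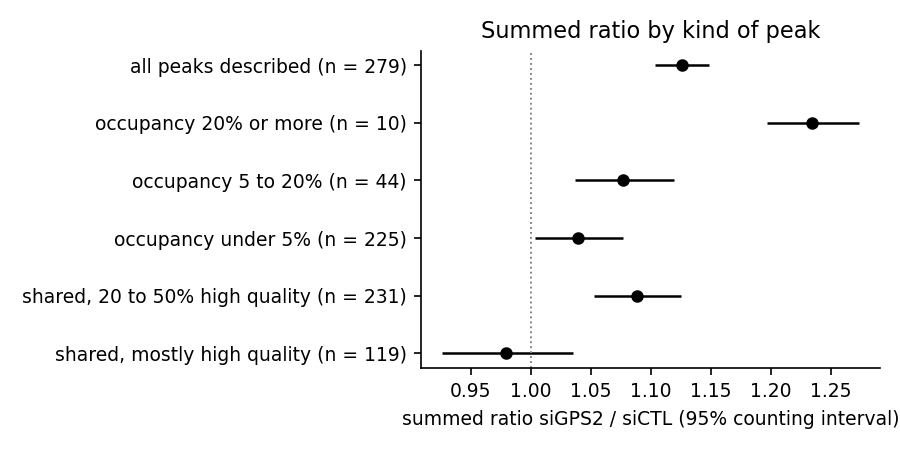
Summed ratio of distinct reads, siGPS2 over siCTL scaled to depth (horizontal axis; points with 95% exact conditional intervals for counting error only), for all 279 peaks, for the 3 classes of filled positions in the densest 300 bp, and for other shared peaks. The ratio is 1.23 in the fullest 10 peaks, 1.04 in the 225 under 5% and 0.979 in the shared peaks mostly of high quality.

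**Figure D4:**
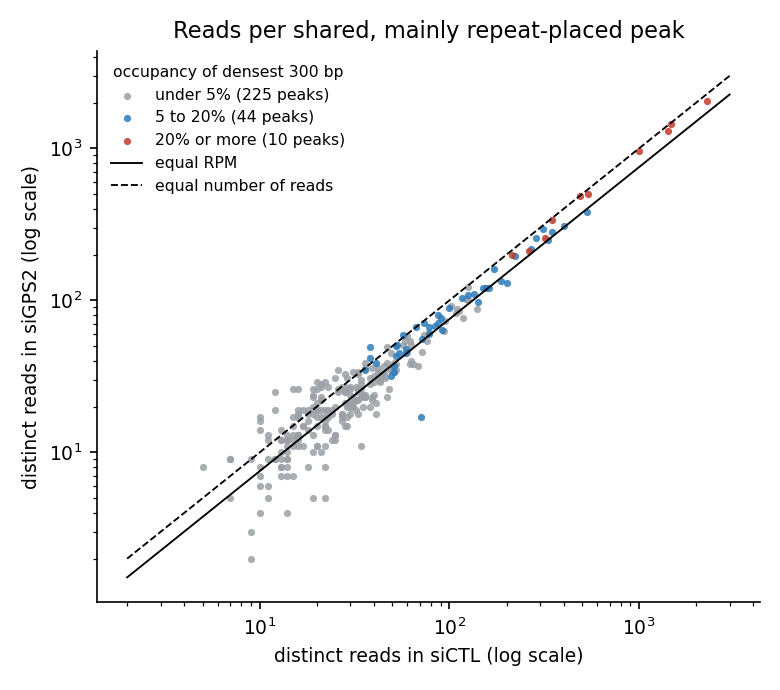
Distinct reads per peak in siCTL (horizontal, log scale) and siGPS2 (vertical, log scale), 1 point per peak for all 279, colored by the filled share of positions in the densest 300 bp. The solid line marks equal RPM and the dashed line equal numbers of reads; several of the fullest peaks (red) lie near the dashed line, while the others scatter around the solid one.

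Deposited reads of the peaks were not spread evenly over the flow cell. Whether this spread was in the sequencing or came with the unstated handling of repeats before deposit was not tested. The ratio was also taken within each of the 14 tiles (imaged areas) that held over 100000 reads of both libraries. The 279 peaks took 0.923% of siCTL reads in the first tile and 0.219% in the last, and 0.997% and 0.267% of siGPS2 reads. For the 10 strongest peaks the share fell 10.8-fold in siCTL and 9.81-fold in siGPS2. For the 225 peaks with under 5% of positions filled it stayed nearly level, at 0.118% and 0.101% in siCTL and 0.110% and 0.117% in siGPS2, as did the share of the peaks mostly of high quality. The within-tile ratio over the 279 peaks was above 1 in 14 of 14 tiles, from 1.01 to 1.22, with 9 intervals above 1. For the peaks under 5% it was above 1 in 10 of 14, from 0.931 to 1.17. In the common tiles together the ratio was 1.09 (1.07 to 1.12), and in the first tile alone 1.08 (1.03 to 1.13). The ratio over the whole libraries also counts reads outside the 14 tiles, most of them siCTL reads. The highest within-tile ratio over the 279 peaks, 1.22, was in the last tile, where siCTL had 459029 distinct reads and siGPS2 286305.

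**Figure D5:**
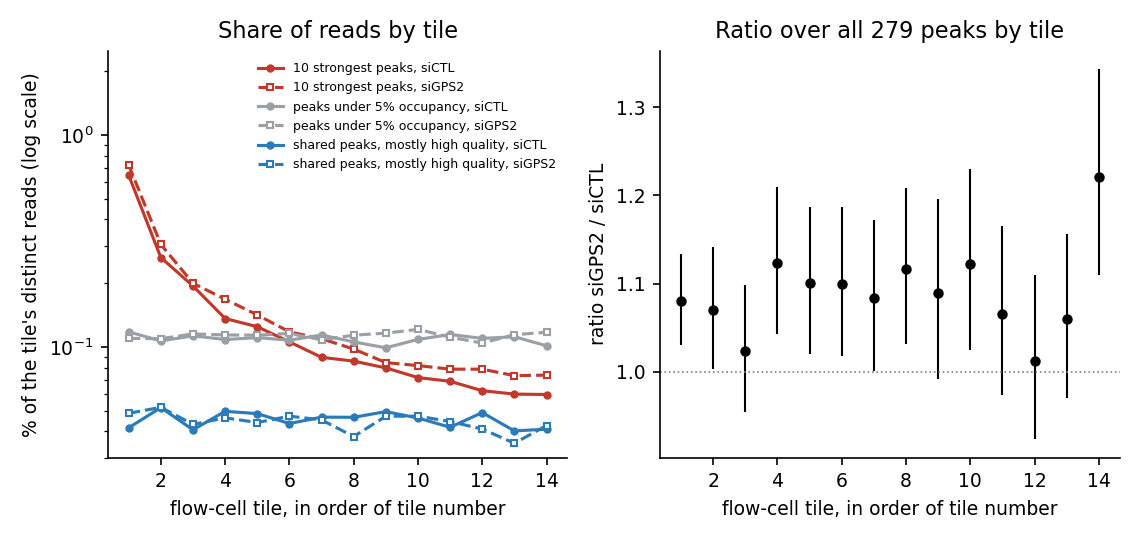
Left, share of each tile's distinct reads (%, log scale) against tile order, for the 10 strongest of the peaks, for the 225 under 5% of positions filled and for the 119 shared peaks mostly of high quality, siCTL solid and siGPS2 dashed. Right, the ratio siGPS2 over siCTL of all 279 peaks in each tile with its 95% exact conditional interval: all 14 points lie above 1, the highest at 1.22 in the last tile. That tile held 459029 siCTL and 286305 siGPS2 distinct reads.

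Few single peaks differed between the libraries by much. Calls needed 30 reads or more, a ratio 1.5-fold or further from 1, and an interval without 1. Of the 224 peaks with enough reads, 2 (0.893%) were lower in siGPS2 and 6 (2.68%) higher. Of all 782 joined peaks with enough reads, these 224 included, 1.53% were lower and 2.81% higher. Both shares were thus near or under the background. Of the 224, 135 had a ratio between 0.8 and 1.25. Without the fold, 18 of the 224 (8.04%) had an interval above 1, against 5.24% of the 782. Of these 18, 8 were among the 10 fullest peaks, whose many reads give narrow intervals. None of the 69 peaks with at least 100 reads reached that fold, and their ratios ran from 0.722 to 1.37.

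The lower peaks were on chromosome 17 at 4581809 to 4583810, with 71 siCTL and 17 siGPS2 reads (0.318, 0.176 to 0.545), and on chromosome 13 at 66274266 to 66276296 inside the run of 13, with 34 and 11 (0.430, 0.196 to 0.868). The chromosome 17 peak was fairly narrow, with 70.5% of reads in 300 bp, and 15.9% of its alignments did not span 48 bp. In the chromosome 13 peak every read was at quality 0 or 1. The 5 higher peaks with the largest ratios were on chromosome 7 at 39102059 to 39104071, with 12 and 25 reads (2.77, 1.34 to 6.04), chromosome 2 at 176824275 to 176826339, with 15 and 26 (2.30, 1.17 to 4.67), chromosome 7 at 38245092 to 38247095, with 16 and 26 (2.16, 1.11 to 4.31), chromosome 11 at 34443355 to 34445955, with 20 and 29 (1.93, 1.05 to 3.59), and chromosome 8 at 20218842 to 20220856, with 26 and 35 (1.79, 1.05 to 3.09). All 5 were broad, with under 50% of reads in the densest 300 bp, and 4 of them lay in runs of 5 or more. At 37 to 61 reads each, such ratios rest on few reads.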

How the data were processed

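Chromatin precipitated with an anti-KDM4A antibody was sequenced from 1 siCTL and 1 siGPS2 library of 3T3-L1 cells (Illumina GAII in the labels' protocols). Per the submitters' processing notes, Bowtie and HOMER were used and the build was mm8; their settings are not given in the sources used here. The authors deposited aligned reads with a mapping quality score per read, and per-library peak lists that hold other values than signal, namely coordinates only. In siCTL 3 and in siGPS2 6 lines were incomplete and left out. Peak starts were taken to count from 0 and are printed counting from 1. With Python 3.11.15, numpy 2.4.6 and scipy 1.17.1, 1 read per 5′ position and strand was kept, counted inside joined peaks and scaled to distinct reads (6559860 and 4940261). Ratios of counted reads carry exact conditional 95% intervals and shares Wilson 95% intervals. With 1 library per group there was no test. The ratio and call steps were tested on simulated data. Regions named were the 10 strongest, up to 5 called each way with the most extreme ratios, those nearest the 20% limit, the widest, the weakest and the 3 longest runs. The peaks and measures were chosen with earlier results of these data known.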

Additional observations from a re-analysis of the deposited data

Results flagged for a closer look

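Shared peaks off chromosomes 1 to 19 and X were outside the comparisons above and still held reads. Of 6 such peaks on unplaced contigs, 4 had under 20% of reads of high mapping quality, with 126 siCTL and 102 siGPS2 distinct reads and a summed ratio of 1.07 (95% exact conditional interval 0.820 to 1.41).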

How the results depend on the processing

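The summed ratio stayed above 1 in all 20 alternatives. It was 1.09 in the common tiles, 1.15 in reads of mapping quality 30 or more, 1.065 without the 10 strongest peaks and, in alternatives chosen after seeing the data, 1.08 after thinning deposited siCTL reads, 1.08 in the first tile, 1.06 without the peaks of 20% or more filled positions and 1.04 in those under 5%, where the median log2 ratio was 0.027. Peaks numbered 155 with a limit of 10%, 510 with 50% and 155 from the first 500 peaks of each list. Lower calls then numbered 1, 5 and 1, and were 4 with a limit of 30% or a minimum of 10 reads, and 1 in peaks under 5% filled. With a minimum of 100 reads 69 peaks were tested, and none was lower (0) or higher (0). Centre enrichment was 18.1 in siCTL and 19.8 in siGPS2 within 75 bp, 9.86 and 10.8 within 300 bp, and 9.39 and 10.1 without the 10 strongest. The cause of the changes given here was not tested. No paired analysis was possible because each group had 1 library. Depth limits single peaks: 224 of 279 had the 30 reads needed for a call.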
